A study of Homo sapiens with 4 samples.

Results

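The 40 genes described here encode nuclear receptors other than the estrogen receptor ESR1, and they were taken by symbol from the 60675 genes of each table. All 40 symbols were found, each at 1 gene, and the 40 are not the whole human family. Their transcripts were sequenced in MM134, an established cell line of invasive lobular breast carcinoma that expresses the estrogen receptor. One line was labelled HER2 WT and the other HER2 L755S, which names a kinase domain substitution of this receptor tyrosine kinase, and each was represented by 2 libraries. All 4 libraries came from cells grown to 70% confluence and then kept for 7 days in phenol red free medium with 5% charcoal-stripped serum, so no group with estrogen was measured and a difference between the lines cannot be read as an effect of deprivation. The sources used here do not tell how the HER2 forms were introduced or whether a line is 1 clone. Nor do they tell whether both libraries of a line had a culture of their own, so every p-value reflects the spread among these libraries alone and that spread may be technical.

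Nuclear receptors are transcription factors, most of which bind DNA through a pair of zinc fingers and many of which are switched by small lipophilic ligands such as steroids, retinoids, thyroid hormone, vitamin D, fatty acids or oxysterols. Steroid receptors mostly act as homodimers, whereas retinoic acid, thyroid hormone, vitamin D, PPAR and LXR receptors pair with a retinoid X receptor. Orphan members such as the COUP-TF proteins (NR2F1, NR2F2 and NR2F6) have no established ligand and can compete with ligand-dependent receptors for related response elements. Charcoal stripping is known to lower the steroids and other lipophilic hormones of serum; ligand levels were not measured here.

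Because the member that changed, NR2F1, has close relatives that did not pass the test, the stretches in which the related genes are most alike are shown first. Each is 90 bases of coding sequence within 1 exon, written 5′ to 3′ on the strand of the gene, from GENCODE 29 transcripts on GRCh38. In the COUP-TF genes capitals mark bases that differ from NR2F1. The stretch lies in exon 1 of all 3, on the plus strand at chr5:93585266-93585355 for NR2F1 and chr15:96332327-96332416 for NR2F2, and on the minus strand at chr19:17244979-17245068 for NR2F6.
NR2F1: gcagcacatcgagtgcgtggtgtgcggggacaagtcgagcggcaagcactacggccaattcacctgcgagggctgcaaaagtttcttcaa
NR2F2: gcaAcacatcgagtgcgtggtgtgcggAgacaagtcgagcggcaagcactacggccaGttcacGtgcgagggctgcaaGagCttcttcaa
NR2F6: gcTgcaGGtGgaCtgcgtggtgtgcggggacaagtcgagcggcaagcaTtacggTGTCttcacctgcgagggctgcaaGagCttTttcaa
NR2F2 differed from NR2F1 at 6 of these 90 bases and NR2F6 at 13. Over all annotated transcripts, the longest run shared base for base was 35 bases between NR2F1 and NR2F2 and also 35 between NR2F1 and NR2F6.

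The retinoic acid receptor genes are shown for the same reason, with RARB as the reference, since RARB had the next largest log2 fold change. Capitals mark bases that differ from RARB, and the stretches lie at chr3:25580573-25580662 (plus strand, exon 5), chr17:40352358-40352447 (plus strand, exon 5) and chr12:53214119-53214208 (minus strand, exon 7).
RARB: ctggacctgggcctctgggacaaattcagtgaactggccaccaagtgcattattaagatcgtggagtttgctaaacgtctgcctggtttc
RARA: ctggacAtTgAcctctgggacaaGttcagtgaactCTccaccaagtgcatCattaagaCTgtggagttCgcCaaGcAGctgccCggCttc
RARG: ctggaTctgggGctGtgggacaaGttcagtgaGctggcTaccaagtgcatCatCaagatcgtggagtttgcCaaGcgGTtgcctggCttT
RARA differed from RARB at 16 of the 90 bases and RARG at 14, and the longest exact run of RARB was 29 bases with RARA and 18 with RARG. The pair of ROR genes, shown because RORB stood lower in HER2 L755S libraries while RORA did not, lie at chr15:60514617-60514706 (minus strand, exon 5) and chr9:74634682-74634771 (plus strand, exon 3), and capitals mark bases that differ from RORA.
RORA: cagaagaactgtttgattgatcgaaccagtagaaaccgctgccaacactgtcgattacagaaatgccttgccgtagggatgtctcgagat
RORB: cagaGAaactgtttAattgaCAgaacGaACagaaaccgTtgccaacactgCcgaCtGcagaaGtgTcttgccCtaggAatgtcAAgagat
These 2 genes differed at 18 of the 90 bases and shared no exact run over 20 bases. The estimated counts of NR2F1, RARB and RORB were whole numbers in all 4 libraries, as were those of 29 of the 40 members. The other 11 had a count that was not whole in at least 1 library, which arises where reads are divided among genes. Among those 11 are RARA, RXRB, ESRRA, NR2C2 and NR1I3. They overlap RARA-AS1, SLC39A7, TRMT112, MRPS25 and TOMM40L, in that order, on the opposite strand. Counts of these neighbours were also not whole, so the levels of these receptors may hold reads of both genes.

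The total expected count per library ran from 27423247 to 31088422. All 10 luminal breast markers were at 1 TPM or more in every library (TPM is transcript abundance per length, scaled to the same total in every library), their summed level was 6619 to 9104 TPM, and none differed between the lines at the threshold. Of their log2 fold changes (HER2 L755S over HER2 WT), 5 were positive and 5 negative. Those without overlap of the lines were ESR1 (-1.29, edgeR, Benjamini-Hochberg adjusted p = 0.15) and KRT19, lower in HER2 L755S libraries. XBP1 (0.64, edgeR, Benjamini-Hochberg adjusted p = 0.45), EPCAM, GATA3, FOXA1 and TFF3 were higher in them, also without overlap. Among all tested genes 36.2% did not overlap. The 11 leukocyte markers summed to between 0.4 and 1.54 TPM, with CD3E, CD3D and MS4A1 among those at 0 in all 4 libraries. The 10 markers of fibroblasts and endothelium summed to 14.9 to 37.7 TPM, nearly all of it COL1A1, and PECAM1 and CDH5 were at 0 throughout. COL1A2 had 0 counts in HER2 WT 1, 45 in HER2 WT 2, 6 in HER2 L755S 1 and 49 in HER2 L755S 2. COL3A1 had 1, 53, 0 and 32 counts in the same order. Both were thus higher in the libraries numbered 2, whereas COL1A1 was lower in them (3253, 1481, 3332 and 1501 counts). Libraries numbered 2 stood apart in their mitochondrial transcripts, which took 8.83% (HER2 WT 2) and 13.5% (HER2 L755S 2) of all counts, whereas HER2 WT 1 had 4.40% and HER2 L755S 1 had 4.03%. For this reason the ratio of the lines is also shown separately for the libraries numbered 1, called pair 1, and for those numbered 2, called pair 2.

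Of the 40 receptors, 23 were expressed, meaning at least 1 TPM in both libraries of at least 1 line, and 21 were at 1 TPM or more in all 4 libraries. The 2 that were not were NR2F1, which reached 1 TPM only in HER2 L755S libraries, and NR1I3. RXRA, the common dimer partner, had the highest mean level, at 49.1 TPM in HER2 WT 1, 31.9 in HER2 WT 2, 53.4 in HER2 L755S 1 and 25.1 in HER2 L755S 2. The oxysterol receptor NR1H2, the thyroid hormone receptor THRA, the orphan receptors NR2C1 and NR2F6, and RXRB followed, with mean levels of 30.1 to 38.2 TPM over the 4 libraries. The ranges of these 6 genes over the libraries overlapped, so their order is not resolved. Even the highest values stood in the 81.5th percentile or below among genes of at least 1 TPM in the same library. NR1I3, the constitutive androstane receptor, was just inside the rule at 1.60, 1.29, 1.35 and 0.68 TPM in HER2 WT 1, HER2 WT 2, HER2 L755S 1 and HER2 L755S 2. ESRRB was just outside it at 0.88, 0.53, 0.65 and 0.56 TPM. NR1H4 (the bile acid receptor FXR), NR2E1 and NR0B1 had no count in any library; a count of 0 allows up to 3 counts per library, from counting error only. PPARG, the regulator of fat cell formation, had 1 count in HER2 WT 2, 1 in HER2 L755S 1 and none elsewhere.

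**Figure D1:**
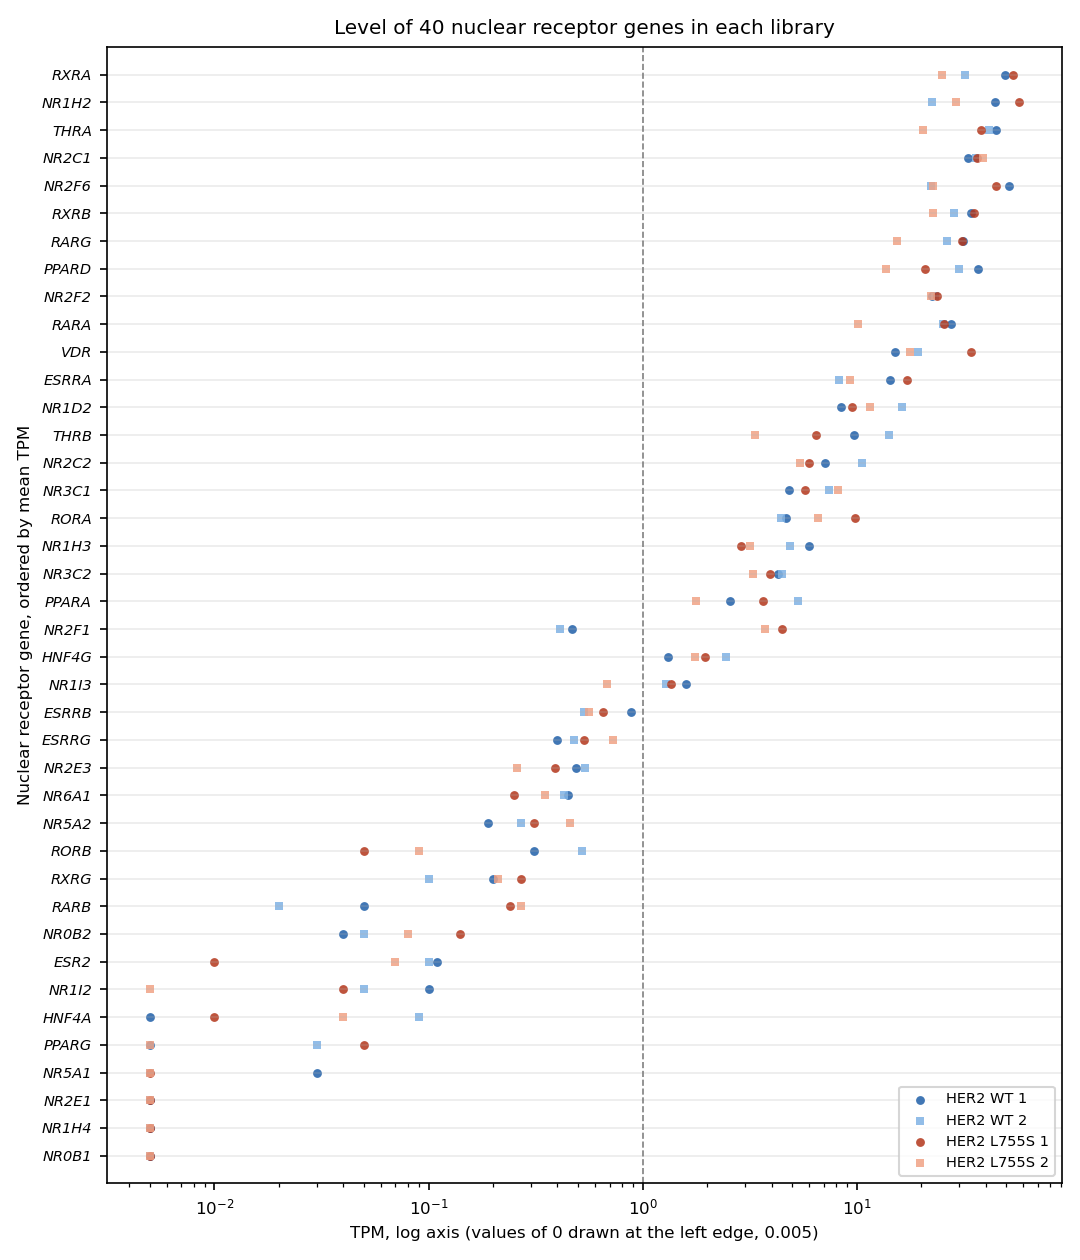
Level of each of the 40 receptor genes in TPM (log axis) in the 4 libraries, with circles for libraries numbered 1 and squares for those numbered 2, blue for HER2 WT and red for HER2 L755S; the dashed line marks 1 TPM and values of 0 are drawn at 0.005. RXRA is at the top with 25.1 to 53.4 TPM, and NR2F1 is the gene whose HER2 L755S points (4.47 and 3.72 TPM) lie on the other side of the line from its HER2 WT points (0.47 and 0.41 TPM).

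The comparison of the lines asks how the receptors differed between estrogen-deprived HER2 L755S and HER2 WT cells. NR2F1 rose in HER2 L755S cells, and no other receptor passed the main test, which had no term for the replicate number. Enough counts for the test were present for 30 of the 40 members; the other 10 had at most 33 counts summed over the 4 libraries. The p-values of edgeR's quasi-likelihood test were adjusted by Benjamini-Hochberg over all 16538 tested genes. At an adjusted p under 0.05, 1 of the 30 was higher and 0 were lower. An unadjusted p under 0.05 was found for 6 of the 30, beside 1742 of all 16538 tested genes. Among all tested genes 0.738% were called higher and 0.949% lower, or 1.69% in either direction. DESeq2 also called 1 receptor higher, and 1 lower, and it called 3.54% of all tested genes. The median log2 fold change of the 30 receptors was 0.04 (0.11 in pair 1 and 0.02 in pair 2), beside 0.00 for all tested genes (0.01 and 0.00), and 16 were positive and 14 negative. The share of positive values was 53.3%, against 40% on the scale of log2(TPM + 0.5), where the median of all tested genes was -0.15, and 41.9% without HER2 L755S 2. A log2 fold change beyond 1 in either direction was found for 4 receptors (13.3%), beside 11.4% of all tested genes. The lines did not overlap for 11 receptors (36.7%), of which 4 were higher and 7 lower in HER2 L755S libraries; among all tested genes 36.2% did not overlap, 16.9% higher and 19.3% lower.

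**Figure D2:**
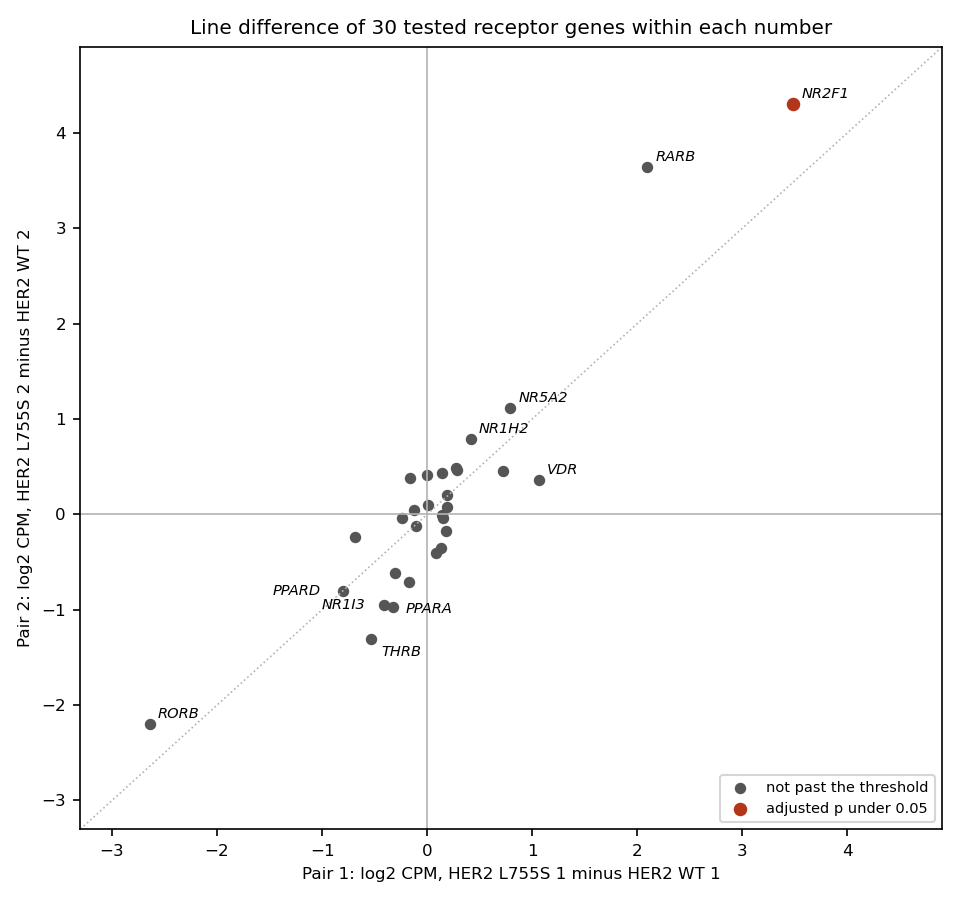
Difference between the lines in log2 CPM (prior count 0.5) for the 30 tested receptor genes, within pair 1 on the x axis and within pair 2 on the y axis; the dotted line marks equal differences and the red point the gene with an adjusted p under 0.05. NR2F1 lies at 3.48 and 4.30, RARB at 2.09 and 3.64 and RORB at -2.64 and -2.20, and most other receptors lie within 1 of zero on both axes.

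NR2F1, also known as COUP-TFI, is an orphan receptor that acts mostly as a repressor and is known for its part in neural development and, in cancer cells, in dormancy. Its gene (ENSG00000175745) lies on chromosome 5 of GRCh38, from 93583224 to 93594615. It had 16 counts in HER2 WT 1, 11 in HER2 WT 2, 166 in HER2 L755S 1 and 200 in HER2 L755S 2. In CPM, which is counts scaled to the library total and the TMM factor, these were 0.494 CPM in HER2 WT 1, 0.379 in HER2 WT 2, 5.68 in HER2 L755S 1 and 7.79 in HER2 L755S 2. Both HER2 L755S libraries thus stood far above both HER2 WT libraries, and the lines did not overlap. In bulk RNA, more cells with the transcript and more transcript per cell cannot be told apart. The mean rose from 0.437 ± 0.0817 to 6.73 ± 1.50 CPM (SD, n = 2), a log2 fold change of 3.93 (SE 0.51, edgeR, Benjamini-Hochberg adjusted p = 0.0039). The adjusted p ran from 2.7e-10 to 0.0079 over the alternatives, and without any 1 library the log2 fold change was 3.68 to 4.14. On the scale of log2(TPM + 0.5), which understates changes of low genes, it was 2.29. With nothing added to TPM, the log2 ratio of the lines was 3.25 in pair 1 and 3.18 in pair 2. From CPM these ratios were 3.48 and 4.30. The antisense gene NR2F1-AS1 overlaps NR2F1 over 2425 bases, and whether counting used the strand is not given; it had 5 counts in HER2 WT 1, 1 in HER2 WT 2, 8 in HER2 L755S 1 and 6 in HER2 L755S 2. Whether reads of the overlap entered the NR2F1 count was not tested.

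The other COUP-TF genes did not pass the test. NR2F2 (COUP-TFII), the closest relative of NR2F1, stood at 51.7 CPM in HER2 WT 1, 54.0 in HER2 WT 2, 52.0 in HER2 L755S 1 and 57.7 in HER2 L755S 2. Its log2 fold change was 0.05 (SE 0.31), and its level ran from 22.2 to 23.6 TPM. NR2F6, a repressor related to both, stood at 85.4 CPM in HER2 WT 1, 38.0 in HER2 WT 2, 76.0 in HER2 L755S 1 and 49.4 in HER2 L755S 2, so its libraries differed by number rather than by line. In each library NR2F2 and NR2F6 made up most of the TPM of the group. NR2F1 made up 0.63% and 0.90% of it in the HER2 WT libraries, and 6.14% and 7.64% in those of HER2 L755S. Even after its rise, NR2F1 stood at 4.47 and 3.72 TPM beside 23.6 and 22.2 TPM of NR2F2.

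**Figure D3:**
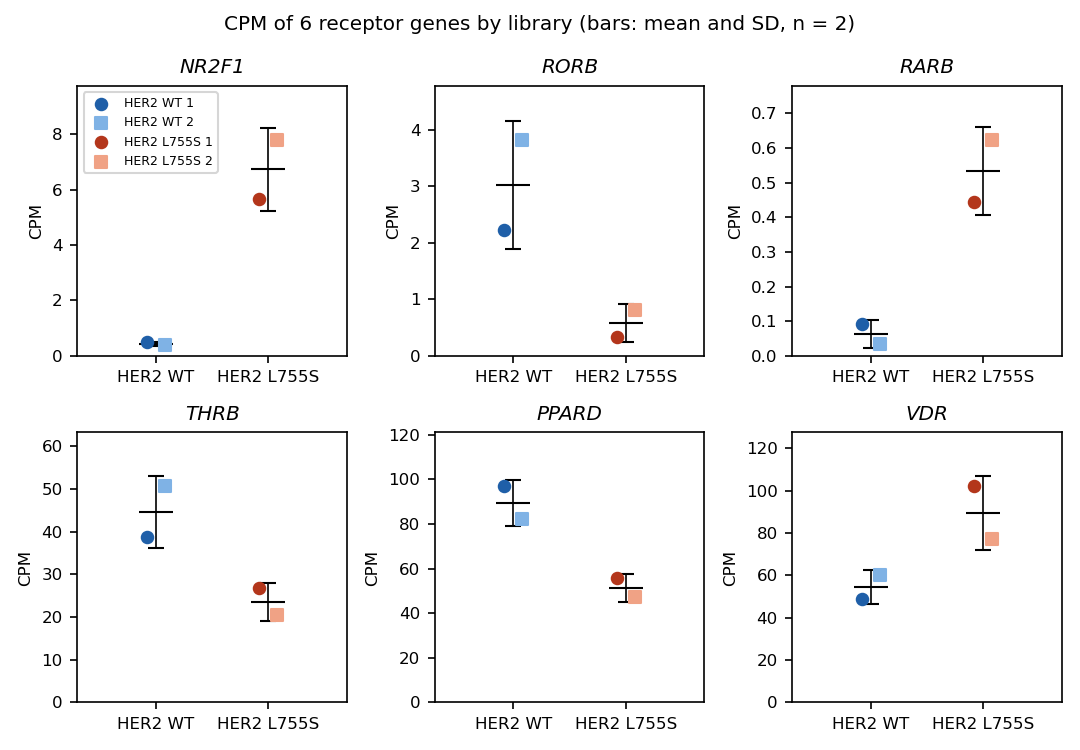
CPM of the 6 receptor genes with an unadjusted p under 0.05, by library (symbols) with the mean and SD of each line (n = 2), each panel on its own axis from 0. NR2F1, RARB and VDR are higher and RORB, THRB and PPARD lower in both HER2 L755S libraries, while RARB stays below 0.7 CPM.

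Among retinoic acid receptors, which activate genes on binding all-trans retinoic acid, RARA and RARG carried nearly all of the signal. RARG stood at 53.2 CPM in HER2 WT 1, 47.0 in HER2 WT 2, 58.4 in HER2 L755S 1 and 36.7 in HER2 L755S 2 (log2 fold change -0.08, SE 0.34). RARA stood at 49.3 CPM in HER2 WT 1, 35.4 in HER2 WT 2, 39.8 in HER2 L755S 1 and 23.1 in HER2 L755S 2 (-0.43, SE 0.37). Both genes overlapped between the lines. RARB, itself induced by retinoic acid in many cells, had 3 counts in HER2 WT 1, 1 in HER2 WT 2, 13 in HER2 L755S 1 and 16 in HER2 L755S 2. The lines did not overlap and the log2 fold change was 2.96 (SE 0.88), but at these counts the difference did not pass the test (edgeR, Benjamini-Hochberg adjusted p = 0.15, between 0.051 and 0.79 over the alternatives). RARB overlaps TOP2B over 28 bases on the opposite strand, and TOP2B had 4983 to 7773 counts per library. The counts of both genes were whole in all 4 libraries, and whether TOP2B reads entered those of RARB was not tested. With so few counts, the level of RARB is uncertain. RARB took at most 1.05% of the TPM of the 3 genes in any library.

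The retinoid X receptors, the shared partners, were alike in mean level, with larger gaps between libraries of a line than between lines. RXRA stood at 173 CPM in HER2 WT 1, 127 in HER2 WT 2, 193 in HER2 L755S 1 and 123 in HER2 L755S 2. RXRB stood at 60.1 CPM in HER2 WT 1, 52.1 in HER2 WT 2, 66.3 in HER2 L755S 1 and 52.0 in HER2 L755S 2. Their log2 fold changes were 0.07 (SE 0.34) and 0.08 (SE 0.32), and for both genes the library numbered 1 was the higher one in each line. RXRG had 4 to 11 counts per library and was too low to test.

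The thyroid hormone receptor genes were lower and the vitamin D receptor gene was higher in both HER2 L755S libraries, none past the threshold in the main fit. With the replicate number as a block, THRB and VDR passed (edgeR, Benjamini-Hochberg adjusted p = 0.0094 and 0.032) and THRA did not. That fit called 10.5% of all tested genes, against 1.69% in the main fit. THRB stood at 38.7 CPM in HER2 WT 1, 50.6 in HER2 WT 2, 26.7 in HER2 L755S 1 and 20.4 in HER2 L755S 2, means of 44.7 ± 8.37 and 23.6 ± 4.47 CPM (SD, n = 2). Its log2 fold change was -0.92 (SE 0.34, pairs -0.53 and -1.31, edgeR, Benjamini-Hochberg adjusted p = 0.30). THRA stood at 99.8 CPM in HER2 WT 1, 98.2 in HER2 WT 2, 88.7 in HER2 L755S 1 and 60.1 in HER2 L755S 2 (log2 fold change -0.41, SE 0.32). The separation of THRA was thus narrow in pair 1 (-0.17) and wider in pair 2 (-0.71). THRA overlaps MED24 over 2926 bases and NR1D1 over 1081 bases on the opposite strand. Counts of THRA and NR1D1 were not whole in any library, so reads of these genes may be mixed. Those of MED24 were whole in all 4 libraries, and whether its reads entered the THRA count was not tested. VDR, which carries the vitamin D signal, stood at 48.8 CPM in HER2 WT 1, 60.1 in HER2 WT 2, 102 in HER2 L755S 1 and 77.2 in HER2 L755S 2. The means were 54.4 ± 7.99 and 89.6 ± 17.5 CPM (SD, n = 2), with a log2 fold change of 0.72 (SE 0.33, pairs 1.06 and 0.36, edgeR, Benjamini-Hochberg adjusted p = 0.47).

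Of the PPARs, receptors for fatty acids, PPARD was the predominant gene, with 84.8% to 93.5% of the TPM of the 3 in each library. PPARD stood at 96.8 CPM in HER2 WT 1, 82.1 in HER2 WT 2, 55.7 in HER2 L755S 1 and 47.0 in HER2 L755S 2, means of 89.4 ± 10.4 and 51.4 ± 6.14 CPM (SD, n = 2). Both HER2 L755S libraries were below both HER2 WT libraries by a like amount, -0.80 in pair 1 and -0.80 in pair 2 on the log2 scale, yet the difference did not pass (log2 fold change -0.80, SE 0.32, edgeR, Benjamini-Hochberg adjusted p = 0.35). PPARA stood at 12.8 CPM in HER2 WT 1, 21.1 in HER2 WT 2, 10.2 in HER2 L755S 1 and 10.8 in HER2 L755S 2 (log2 fold change -0.70, SE 0.37, adjusted p = 0.63).

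Among steroid receptors, NR3C1 encodes the glucocorticoid receptor and NR3C2 the mineralocorticoid receptor. NR3C1 stood at 19.1 CPM in HER2 WT 1, 30.1 in HER2 WT 2, 23.2 in HER2 L755S 1 and 41.6 in HER2 L755S 2, so the libraries numbered 2 were the higher ones and the lines overlapped (log2 fold change 0.40, SE 0.39). NR3C2 stood at 17.7 CPM in HER2 WT 1, 19.5 in HER2 WT 2, 16.4 in HER2 L755S 1 and 17.9 in HER2 L755S 2 (-0.12, SE 0.33). Per length both genes were of the same order, at 4.84 to 8.20 TPM for NR3C1 and 3.26 to 4.46 TPM for NR3C2. ESR2, the gene of estrogen receptor beta, had 10 counts in HER2 WT 1, 6 in HER2 WT 2, 1.07 in HER2 L755S 1 and 6.09 in HER2 L755S 2, at most 0.11 TPM. ESR2 lies antisense to SYNE2, which had 2132 to 5626 counts per library, so even these few counts are uncertain.

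The estrogen-related receptors bind no estrogen and are known as regulators of mitochondrial genes. ESRRA stood at 21.0 CPM in HER2 WT 1, 12.3 in HER2 WT 2, 25.4 in HER2 L755S 1 and 17.2 in HER2 L755S 2 (log2 fold change 0.35, SE 0.38), with the library numbered 1 higher in each line. It held 87.8% to 93.5% of the TPM of the 3 genes. ESRRA overlaps TRMT112 over 284 bases on the opposite strand. Counts of both genes were not whole in any library, so their reads may be mixed. ESRRB and ESRRG were tested at 22 to 55 counts per library, and their log2 fold changes were 0.20 (SE 0.57) and -0.03 (SE 0.52).

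Of the sterol, bile acid and xenobiotic receptors, NR1H2 (LXR beta) had a higher level in TPM than NR1H3 (LXR alpha) in every library. NR1H2 stood at 54.6 CPM in HER2 WT 1, 29.4 in HER2 WT 2, 72.7 in HER2 L755S 1 and 50.8 in HER2 L755S 2. Each HER2 L755S library was above the HER2 WT library of its number (0.41 and 0.79), but the numbers differed as much and the lines overlapped (log2 fold change 0.56, SE 0.38). NR1H3 stood at 3.80 CPM in HER2 WT 1, 3.44 in HER2 WT 2, 2.36 in HER2 L755S 1 and 2.92 in HER2 L755S 2 (-0.46, SE 0.44). NR1I3 stood at 1.05 CPM in HER2 WT 1, 1.00 in HER2 WT 2, 0.786 in HER2 L755S 1 and 0.506 in HER2 L755S 2 (-0.66, SE 0.59). NR1H3 and NR1I3 did not overlap between the lines, at counts of 123 or less per library. NR1I2, the pregnane X receptor, had 6 counts or fewer in each library.

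REV-ERB and ROR proteins bind the same elements with opposite effects in the circadian clock, as repressors and activators. NR1D2 (REV-ERB beta) stood at 32.0 CPM in HER2 WT 1, 48.8 in HER2 WT 2, 36.5 in HER2 L755S 1 and 56.1 in HER2 L755S 2 (log2 fold change 0.20, SE 0.36). RORA stood at 11.3 CPM in HER2 WT 1, 19.0 in HER2 WT 2, 18.6 in HER2 L755S 1 and 26.0 in HER2 L755S 2 (0.56, SE 0.38), and the lines overlapped. RORB, known from brain and retina, had 72 counts in HER2 WT 1, 111 in HER2 WT 2, 10 in HER2 L755S 1 and 21 in HER2 L755S 2. In CPM it averaged 3.02 ± 1.13 and 0.580 ± 0.337 (SD, n = 2), all of it under 1 TPM per length, and the lines did not overlap. Its log2 fold change was -2.38 (SE 0.60, pairs -2.64 and -2.20), short of the threshold in all 4 libraries (edgeR, Benjamini-Hochberg adjusted p = 0.082). RORB was called by DESeq2 (adjusted p = 0.025), with no filter on low counts (edgeR, adjusted p = 0.0017), and in edgeR also with HER2 WT 1 left out (adjusted p = 0.012) or HER2 L755S 2 left out (adjusted p = 0.0064). With 1 library left out, a line has a single library, which is assumed to vary like the pair of the other line. Over the alternatives its adjusted p reached 0.34, the value without HER2 WT 2.

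**Figure D4:**
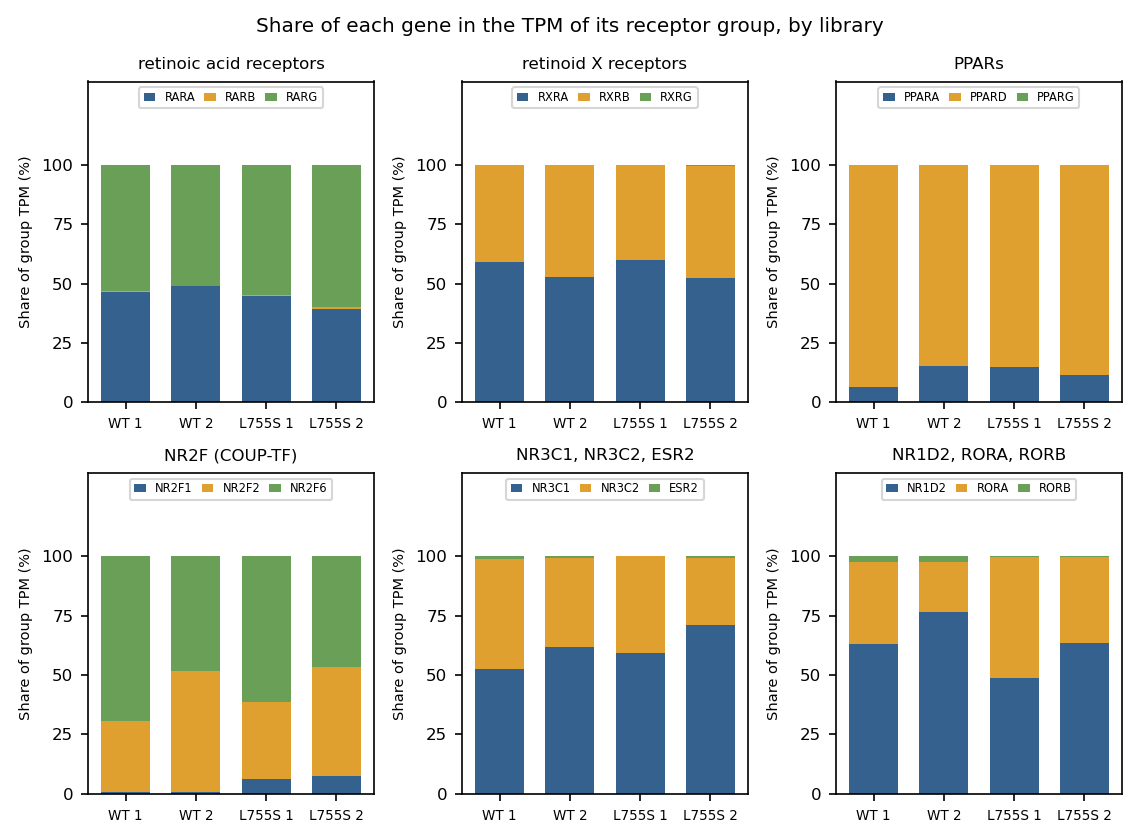
Share of each gene in the summed TPM of its receptor group in each library (stacked bars, y axis in percent from 0, group members named above each panel). RARA with RARG and RXRA with RXRB make up nearly all of their groups, PPARD makes up 84.8% to 93.5% of its group, and the NR2F1 segment grows from 0.63% and 0.90% in HER2 WT to 6.14% and 7.64% in HER2 L755S libraries.

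The remaining orphan receptors showed no difference past the threshold. NR2C1 (TR2) stood at 29.5 CPM in HER2 WT 1, 39.1 in HER2 WT 2, 32.5 in HER2 L755S 1 and 52.7 in HER2 L755S 2 (log2 fold change 0.31, SE 0.36). Its partner NR2C2 (TR4) stood at 31.0 CPM in HER2 WT 1, 50.3 in HER2 WT 2, 33.0 in HER2 L755S 1 and 38.0 in HER2 L755S 2 (-0.20, SE 0.35). HNF4G, a relative of the liver factor HNF4A, stood at 3.74 CPM in HER2 WT 1, 6.51 in HER2 WT 2, 4.27 in HER2 L755S 1 and 6.86 in HER2 L755S 2 (0.12, SE 0.45). HNF4A itself had 4 counts or fewer per library. NR5A2 (LRH-1) had 21 counts in HER2 WT 1, 29 in HER2 WT 2, 33 in HER2 L755S 1 and 56 in HER2 L755S 2, without overlap in CPM (log2 fold change 1.00, SE 0.58, edgeR, Benjamini-Hochberg adjusted p = 0.70). NR6A1 and NR2E3, at 12 to 67 counts per library, had log2 fold changes of -0.02 (SE 0.53) and -0.16 (SE 0.64). The steroidogenic factor NR5A1 and NR0B2 (SHP), which lacks the usual DNA-binding domain, had 3 counts or fewer per library.

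As over all tested genes, many receptors differed between libraries of different number. Of the 30 tested members, 11 were lower and 13 higher in the library numbered 2 of both lines, and the remaining 6 moved in opposite directions. That is 80.0% with the same sign, beside 72.5% of all tested genes. For 18 of the 30 (60.0%, beside 57.2% of all tested genes) the mean difference between the numbers was larger than the mean difference between the lines. NR2F6 was lower in the library numbered 2 by 1.17 (HER2 WT) and 0.62 (HER2 L755S) on the log2 CPM scale, with the same direction in NR1H2, ESRRA and RXRA. NR3C1 was higher in it by 0.66 and 0.84, and HNF4G and NR1D2 by 0.61 to 0.80. What the number stands for is not given, and the part of the mitochondrial share in these differences was not tested.

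For several receptors TPM gave another picture of a pair than CPM. Mitochondrial genes took 24.3% of the TPM in HER2 L755S 2, against 8.55%, 17.9% and 7.78% in HER2 WT 1, HER2 WT 2 and HER2 L755S 1; its part in the differences between TPM and CPM was not tested. Over the 23 expressed receptors, the log2 ratio of the lines from TPM minus that from CPM had a median of -0.33 in pair 2 and -0.03 in pair 1. In pair 2 the signs differed for VDR, NR1D2, NR2F2 and HNF4G, and in pair 1 for RARG, PPARA and NR2C2. For VDR, pair 2 was 0.36 from CPM and -0.13 from TPM. PPARA, in pair 1, was -0.33 from CPM but 0.51 from TPM, while the effective length that the authors' tables give for it was 6574 and 5016 bases in HER2 WT 1 and 2 and 3584 and 6066 bases in HER2 L755S 1 and 2. This length is an average over the estimated isoforms, so it moves with the isoform mix. For NR2F1 it came to 1395 and 1158 bases in HER2 WT and 1634 and 2109 bases in HER2 L755S libraries, at 11 to 200 counts. In 11 of the 23 expressed receptors the length differed by less than 10% within both pairs.

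**Figure D5:**
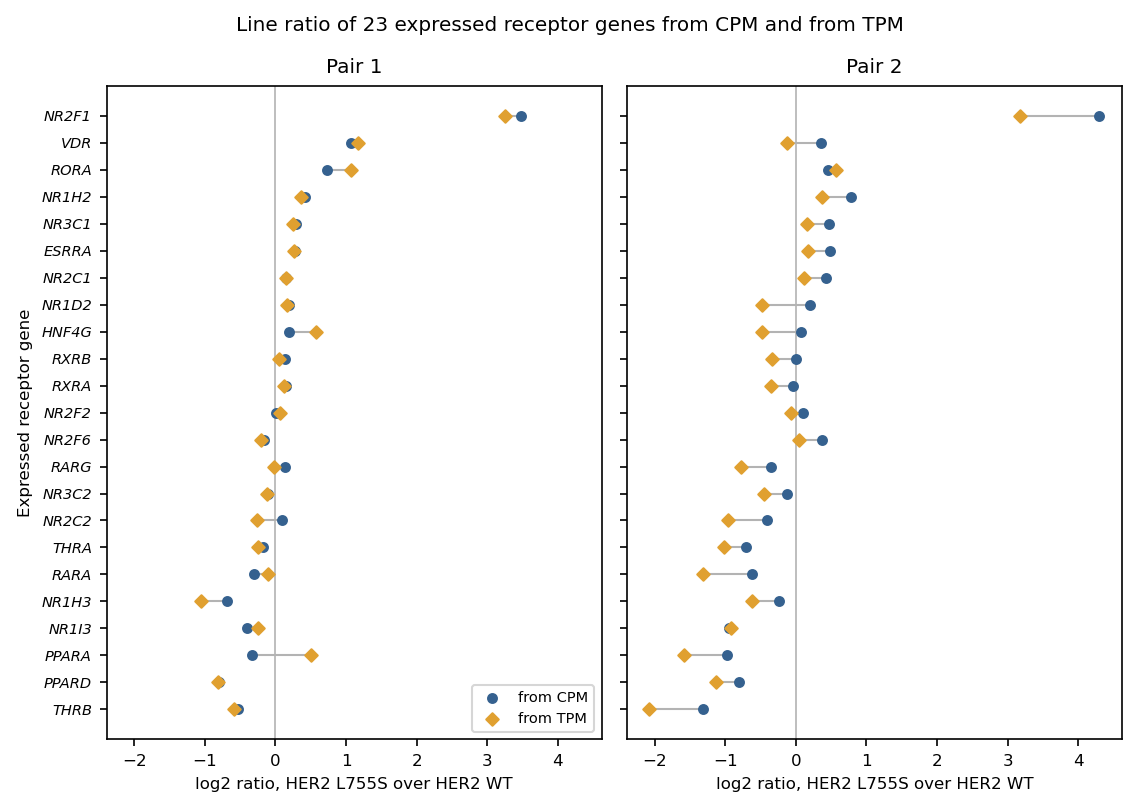
Log2 ratio of HER2 L755S over HER2 WT for the 23 expressed receptor genes within pair 1 (left) and pair 2 (right), from CPM (blue circles) and from TPM (orange diamonds), with a line joining both values of a gene. In pair 2 most diamonds lie to the left of the circles, with a median shift of -0.33, and in pair 1 PPARA crosses zero from -0.33 to 0.51.

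Genes known to respond to these receptors, or to work with them, were read from 9 lists. In the coregulator list 0 of 19 tested genes were called, with 6 positive and 13 negative log2 fold changes and a median of -0.28 (0.01 in pair 1 and -0.47 in pair 2). PPARGC1B, NRIP1 and TBL1X had the lowest adjusted p, with log2 fold changes of 1.02, -0.89 and -0.73 (edgeR, Benjamini-Hochberg adjusted p = 0.41, 0.44 and 0.46). Of 8 tested retinoic acid receptor targets 0 were called. CRABP2, which carries retinoic acid to its receptor, was at 765 to 1181 TPM in all libraries, and RARRES3 stood at 33.1 CPM in HER2 WT 1, 27.9 in HER2 WT 2, 15.6 in HER2 L755S 1 and 10.8 in HER2 L755S 2 (log2 fold change -1.21, adjusted p = 0.14). DESeq2 called RARRES3 (adjusted p = 0.042). Also 0 genes were called of 10 tested PPAR targets, 12 ERR targets, 4 vitamin D receptor targets and 6 REV-ERB and ROR targets, where NPAS2, a partner in the clock, had the lowest adjusted p (log2 fold change 1.41, edgeR, Benjamini-Hochberg adjusted p = 0.10). NPAS2 was called by DESeq2 (adjusted p = 0.011) and, in edgeR, with no filter (adjusted p = 0.012) and without HER2 L755S 2 (adjusted p = 0.017), among other alternatives. The vitamin D target CYP24A1 was at 0 TPM in all 4 libraries. CPT1A, of the PPAR and thyroid hormone receptor lists, stood at 371 CPM in HER2 WT 1, 446 in HER2 WT 2, 246 in HER2 L755S 1 and 218 in HER2 L755S 2 (-0.81, adjusted p = 0.28).

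Called genes stood in 3 of the lists, beside 0.738% called higher and 0.949% called lower among all tested genes. In the thyroid hormone receptor list 1 of 6 tested genes was higher and 1 lower, with a median of -1.09 (-0.65 in pair 1 and -1.11 in pair 2). Of these log2 fold changes 4 were negative and 2 positive, in KLF9 and in THRSP (1.19, edgeR, Benjamini-Hochberg adjusted p = 0.30). DIO1, a deiodinase that converts thyroxine to the active hormone, had 5.47 CPM in HER2 WT 1, 8.81 in HER2 WT 2, 0.205 in HER2 L755S 1 and 0.428 in HER2 L755S 2. It fell by 4.49 on the log2 scale (SE 0.57, pairs -4.62 and -4.30, edgeR, Benjamini-Hochberg adjusted p = 0.0039), and its adjusted p was at most 0.0083 over the alternatives. HR, a corepressor that thyroid hormone induces in brain, stood at 40.4 CPM in HER2 WT 1, 26.6 in HER2 WT 2, 14.2 in HER2 L755S 1 and 11.6 in HER2 L755S 2 (log2 fold change -1.37, adjusted p = 0.094). HR was called by DESeq2 (adjusted p = 0.015) and, in edgeR, with no filter (adjusted p = 0.024) and without HER2 WT 2 (adjusted p = 0.043), among other alternatives.

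KLF9, a transcription factor gene listed under both thyroid hormone and glucocorticoid receptors, stood at 1.05 CPM in HER2 WT 1, 2.51 in HER2 WT 2, 10.3 in HER2 L755S 1 and 15.5 in HER2 L755S 2 (log2 fold change 2.86, edgeR, Benjamini-Hochberg adjusted p = 0.016). Of 13 tested glucocorticoid receptor targets KLF9 was higher and MAOA lower, and the median was -0.01. MAOA, which oxidizes monoamines, stood at 7.69 CPM in HER2 WT 1, 8.06 in HER2 WT 2, 0.991 in HER2 L755S 1 and 0.818 in HER2 L755S 2 (log2 fold change -3.11, SE 0.45, edgeR, Benjamini-Hochberg adjusted p = 0.0067). The classical targets FKBP5 and TSC22D3 had log2 fold changes of 0.47 and -0.06, neither past the threshold. Of 11 tested LXR targets 2 were higher, among them the desaturase gene SCD, and the median was 0.18 (0.48 in pair 1 and 0.47 in pair 2). SCD stood at 1077 CPM in HER2 WT 1, 1773 in HER2 WT 2, 3883 in HER2 L755S 1 and 4814 in HER2 L755S 2 (log2 fold change 1.61, SE 0.33, edgeR, Benjamini-Hochberg adjusted p = 0.035), and it lost its call only on the scale of log2(TPM + 0.5) (limma, adjusted p = 0.083). FASN, the fatty acid synthase gene, had a log2 fold change of 1.47 that did not pass (SE 0.42, edgeR, Benjamini-Hochberg adjusted p = 0.13). FASN was called by DESeq2 (adjusted p = 0.024) and, in edgeR, with no filter (adjusted p = 0.00018), without HER2 WT 1 (adjusted p = 0.0042) and without HER2 L755S 2 (adjusted p = 1.8e-06), among other alternatives. The sterol exporter genes ABCA1 and ABCG1 had log2 fold changes of 0.12 and 0.60, neither past the threshold.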

How the data were processed

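RNA of 4 libraries, 2 of each line, was sequenced after poly(A) selection, per the labels' protocols. Each deposited table is RSEM output, per the file headers. It gives an expected count per gene, which is estimated and can have decimals, and TPM, both made by the authors. STAR, edgeR and GRCh38 are named, with no role or version, per the submitters' processing notes; the sources used here give no annotation release. Groups and replicate numbers come from the sample titles.

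Expected counts were rounded, and 16538 of 60675 genes passed filterByExpr. The lines were compared in all 4 libraries with TMM scaling and edgeR 4.0.16 (glmQLFit and glmQLFTest, two-sided, no term for the replicate number, R 4.3.3), with Benjamini-Hochberg adjustment over all tested genes at 0.05. DESeq2 1.42.0 and limma 3.58.1 served as alternatives. The fit was tested on simulated data drawn with no effect of the replicate number, so that test does not cover such an effect. Within a pair, log2 CPM values (prior count 0.5) were subtracted. A permutation test of 2 against 2 libraries cannot give a p below 0.333, so none is given. Levels are compared between genes by TPM. Positions and sequences are from GENCODE 29, matched by Ensembl identifier. The members, lists and tests were chosen with earlier results of these data known. Named genes are all members and, from each list, called genes and up to 3 others by adjusted p. CRABP2, CYP24A1, FKBP5, TSC22D3, ABCA1, ABCG1, KRT19, EPCAM, GATA3 and FOXA1 were added after their values were seen. 1 called gene of the LXR list and 1 leukocyte marker are not reported here by name. FPKM was not used.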

Additional observations from a re-analysis of the deposited data

How the results depend on the processing

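NR2F1 kept its direction and its call in all 12 alternatives tried. Of 354 values recomputed for the 30 tested receptors, 314 kept direction and side of the threshold, 8 gained a call, 0 lost one and 32 changed sign, none of those past the threshold. The causes of these changes were not tested.

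The number of all tested genes called higher and lower was 122 and 157. It was 276 and 309 with DESeq2, 328 and 431 with no filter, and 725 and 1018 with the replicate number as a block. Without 1 library, higher genes numbered 160 to 220 and lower genes 184 to 328. Receptors called lower numbered 1 with DESeq2, 1 with no filter, and 0 to 1 without 1 library, each time RORB, and receptors called higher numbered 1 without any 1 library. With the replicate block 2 receptors were higher and 3 lower, where 10.5% of all tested genes were called. These receptors were NR2F1 and VDR (edgeR, adjusted p = 8.4e-06 and 0.032), and RORB, PPARD and THRB (adjusted p = 0.0022, 0.0089 and 0.0094). Of the listed genes named, the replicate block also called HR (edgeR, adjusted p = 0.00027), FASN (0.00066), NPAS2 (0.00019), RARRES3 (0.00069), CPT1A (0.015), NRIP1 (0.016) and TBL1X (0.016). Same-numbered libraries deviated together over all tested genes (r = 0.43, across genes of 2 pairs), but the labels do not say what the number marks. The number of expressed receptors was 23, with 25 at most and 21 at least over the other thresholds and left-out libraries.

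The log2 fold change changed sign without 1 library for the following genes, over the ranges given: -0.082 to 0.79 for NR3C1, -0.32 to 0.35 for ESRRG, -0.45 to 0.22 for RARG, -0.29 to 0.36 for RXRA, -0.11 to 0.24 for RXRB, -0.15 to 0.55 for NR1D2, -0.027 to 0.13 for NR2F2, -0.44 to 0.72 for NR2F6, -0.079 to 0.62 for NR2C1, -0.51 to 0.21 for NR2C2, -0.34 to 0.070 for NR2E3, -0.26 to 0.59 for HNF4G, -0.52 to 0.39 for NR6A1 and -0.30 to 0.85 for CLOCK. On log2(TPM + 0.5), an alternative chosen after seeing the data, it was -0.11 for ESRRB, 0.26 for ESRRG, -0.11 for RXRA, -0.14 for RXRB, -0.16 for NR1D2 and -0.080 for NR2F6. With no scaling it was -0.021 for NR2F2 and -0.046 for NR2F6. With limma-voom it was 0.0080 for ESRRG. With DESeq2 it was 0.0021 for NR6A1. With the size factors of DESeq2 in edgeR it was 0.0017 for NR6A1. None of these values was past the threshold.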
